A study of Mus musculus with 16 samples.

Results

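The genes described are 8 genes of primitive endoderm and of endocytic uptake, Gata6, Gata4, Sox17, Lrp2, Dab2, Amn, Cubn and Apoe, in mouse embryonic stem cells (ESCs) that lack or overexpress Prdm4, a PRDM family member that binds DNA through zinc fingers. Every probe whose gene symbol was 1 of these 8 names was taken, which gave 15 of the 45281 probes and 8 of the 19057 named genes of the array. The rule that picks the probes uses gene names alone, but the 8 names were put together with earlier results of these data known. RNA was hybridized on 16 arrays: 6 of wild-type ESCs (genotype Prdm4+/+), 4 of Prdm4 null ESCs (Prdm4∆ZF/∆ZF, in which the zinc finger domain is deleted on both alleles) and 6 of Prdm4-EGFP ESCs, stably transfected to express full-length Prdm4 joined to a green fluorescent protein from the chicken beta-actin promoter. The labels give all arrays the strain 129/Sv and name no treatment, passage or time. By the methods the parental line is the CCE line, adapted to grow on gelatin, and the arrays of a group are biological replicates. No label tells if clones were derived independently within a genotype, so errors and p-values measure the spread between these arrays.

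Primitive endoderm is the cell layer that forms beside the epiblast in the blastocyst and gives rise to the visceral and parietal endoderm of the yolk sac. Gata6, Gata4 and Sox17 are transcription factors that mark this lineage and promote it, and Gata6 opposes Nanog in the choice between primitive endoderm and epiblast. Visceral endoderm feeds the embryo by endocytosis. Lrp2 (megalin) is a giant receptor of the LDL receptor family, and Cubn (cubilin) is a receptor with no membrane-spanning part that is anchored and carried to the surface by Amn (amnionless). Dab2 is the adaptor that links such receptors to clathrin coats, and Apoe is an apolipoprotein and a ligand of LDL receptor family members, Lrp2 among them.

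Promoters are shown for Dab2 and Amn, whose levels varied together from array to array, and for Lrp2, whose deviations over all 16 arrays did not follow theirs, so that their letters can be set side by side. From the RefSeq promoter table of assembly GRCm38.p6, 8 promoters of 5 of the genes (Lrp2, Cubn, Amn, Dab2 and Apoe) were used. Each has 300 bases, 250 before the transcription start and 50 after it. Promoters of Gata6, Gata4 and Sox17 were not among these 8, so the motif counts below do not cover these genes. Capitals mark GATAA, the core that GATA factors bind, or TTATC, the same core on the other strand. The Dab2 promoters lie on the plus strand at chr15:6299539-6299838 and chr15:6386498-6386797, the Amn promoter on the plus strand at chr12:111270846-111271145 and the Lrp2 promoter on the minus strand at chr2:69585980-69586279.
Dab2, upstream start: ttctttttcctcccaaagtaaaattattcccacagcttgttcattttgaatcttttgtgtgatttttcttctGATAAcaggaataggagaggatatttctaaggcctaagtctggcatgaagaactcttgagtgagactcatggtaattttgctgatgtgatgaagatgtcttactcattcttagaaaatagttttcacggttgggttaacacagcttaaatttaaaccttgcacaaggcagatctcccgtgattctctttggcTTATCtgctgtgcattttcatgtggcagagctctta
Dab2, downstream start: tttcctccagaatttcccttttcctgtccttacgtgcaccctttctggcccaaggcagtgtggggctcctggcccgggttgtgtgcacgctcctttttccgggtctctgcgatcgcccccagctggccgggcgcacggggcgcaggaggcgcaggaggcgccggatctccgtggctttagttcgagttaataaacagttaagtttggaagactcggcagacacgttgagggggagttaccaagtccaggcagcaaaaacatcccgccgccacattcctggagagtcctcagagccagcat
Amn: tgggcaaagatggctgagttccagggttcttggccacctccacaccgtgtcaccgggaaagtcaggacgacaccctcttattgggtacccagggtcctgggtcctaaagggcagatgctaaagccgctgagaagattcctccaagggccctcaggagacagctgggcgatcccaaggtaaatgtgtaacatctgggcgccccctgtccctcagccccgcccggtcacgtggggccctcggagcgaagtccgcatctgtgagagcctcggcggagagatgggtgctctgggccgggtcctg
Lrp2: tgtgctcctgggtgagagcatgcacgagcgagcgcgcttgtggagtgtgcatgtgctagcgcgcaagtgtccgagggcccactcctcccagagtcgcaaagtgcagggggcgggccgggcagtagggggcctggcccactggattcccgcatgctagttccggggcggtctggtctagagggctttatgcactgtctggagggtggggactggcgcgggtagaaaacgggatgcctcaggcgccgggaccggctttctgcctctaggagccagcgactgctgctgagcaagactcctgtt
The upstream Dab2 start held GATAA 2 times, with its first base 178 bases before the start and, on the other strand, at base 15 after it, where the letters also spelled AGATAA. The downstream Dab2 start, Amn and Lrp2 held no match. The other 4 promoters, of Cubn and Apoe, held none either, and 25.4% of all 32851 promoters of this length held GATAA while 11.2% held the longer AGATAA, which contains it. ACAAT, the core bound by Sox factors, was found in 1 of the 8, an Apoe promoter, against 31.0% of all promoters. GAAAC, the core of the Prdm4 motif, was found in 2 of the 8, 1 of Cubn and 1 of Apoe, against 45.0% of all promoters. The downstream Dab2 promoter had 19 CpG dinucleotides, Amn 15 and Lrp2 20, while the upstream Dab2 promoter had 2, against a median of 7 over all promoters. These matches describe letters in a window and are not sites.

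A probe was taken as above background on an array where its detection p-value, which compares it with the negative control beads, was under 0.01. Probes above background on at least 4 arrays were tested, 15356 probes for 8707 genes. The filter passed 6 of the 15 probes, for 5 of the 8 genes: Gata6, Lrp2, Amn, Apoe and, with 2 probes, Dab2. Gata6 passed it through the arrays of Prdm4 null (4 of 4) and Prdm4-EGFP ESCs (4 of 6), with 1 of 6 wild-type arrays above background, so it entered the test through the groups where it was high. Gata4, Cubn and both probes of Sox17 were above background on none of the 16 arrays, and neither were the remaining probe of Gata6, 2 of the 3 of Lrp2 and 2 of the 4 of Dab2. Levels below are log2 of the background-corrected and quantile-normalized intensity plus 16. Different probes bind with different strength, so no level is set against that of another probe.

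Per array, 13894 to 14905 probes were above background, and 1 component with 52.2% of the variance between arrays ran from 36.2 to 42.1 on null arrays and from -18.3 to -8.81 on the remaining 12. Wild-type arrays 1, 5 and 6 (17.1 to 31.8) stood apart from wild-type arrays 2, 3 and 4 (-6.46 to 2.32) on the next component, with 13.1%. Of the 2 Prdm4 probes, the dimmer had a mean of 7.23 in wild-type ESCs and was not above background on any null array (limma adjusted p = 1.25e-12), and the brighter lay at 10.30 in wild-type and 9.67 in null ESCs (limma adjusted p = 6.04e-07). Neither was called in Prdm4-EGFP ESCs (means 7.22 and 10.25, limma adjusted p = 0.984 and 0.717). Thus neither probe showed a rise of Prdm4 RNA there, the dimmer one that was lost on the null arrays included. The positions of the probes are not given, and a probe outside the coding sequence of the transgene would not check that label. All 8 markers of pluripotent cells, Pou5f1 and Nanog among them, were above background on every array, with a summed intensity of 51400 to 54900 in wild-type, 48300 to 50900 in null and 52900 to 55900 in Prdm4-EGFP ESCs. Of the primitive endoderm markers, 3 of the 7 with a probe (Gata4, Sox17 and Foxa2) were above background on no array, and the summed intensity of the list overlapped between the groups, with 194 to 308 in wild-type, 267 to 281 in null and 171 to 333 in Prdm4-EGFP ESCs. Of its 3 tested genes Gata6 was called higher and Sox7 lower in null ESCs, and Hnf4a, a nuclear receptor of visceral endoderm, was not called (0.17, SE 0.12, limma adjusted p = 0.264). The labels and file headers give no slide, scan or culture date, so no batch beyond the array number could be examined.

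Prdm4 null was first compared with wild-type to ask how loss of the zinc finger domain related to the endoderm genes. All 5 tested genes were higher in the null ESCs. Dab2 was higher by 2.00 on the log2 scale and Lrp2 by 1.89, Gata6 by 1.35, and Amn and Apoe by 0.96 each. Over all genes tested 22.9% were called higher and 21.2% lower in this comparison, and every null array lay above every wild-type array for 16.9% of genes. It did so for all 5 of these genes. Since the genes were chosen with earlier results known, their count is a description and nothing is read from it against these shares. The median over all genes was 0.02.

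**Figure D1:**
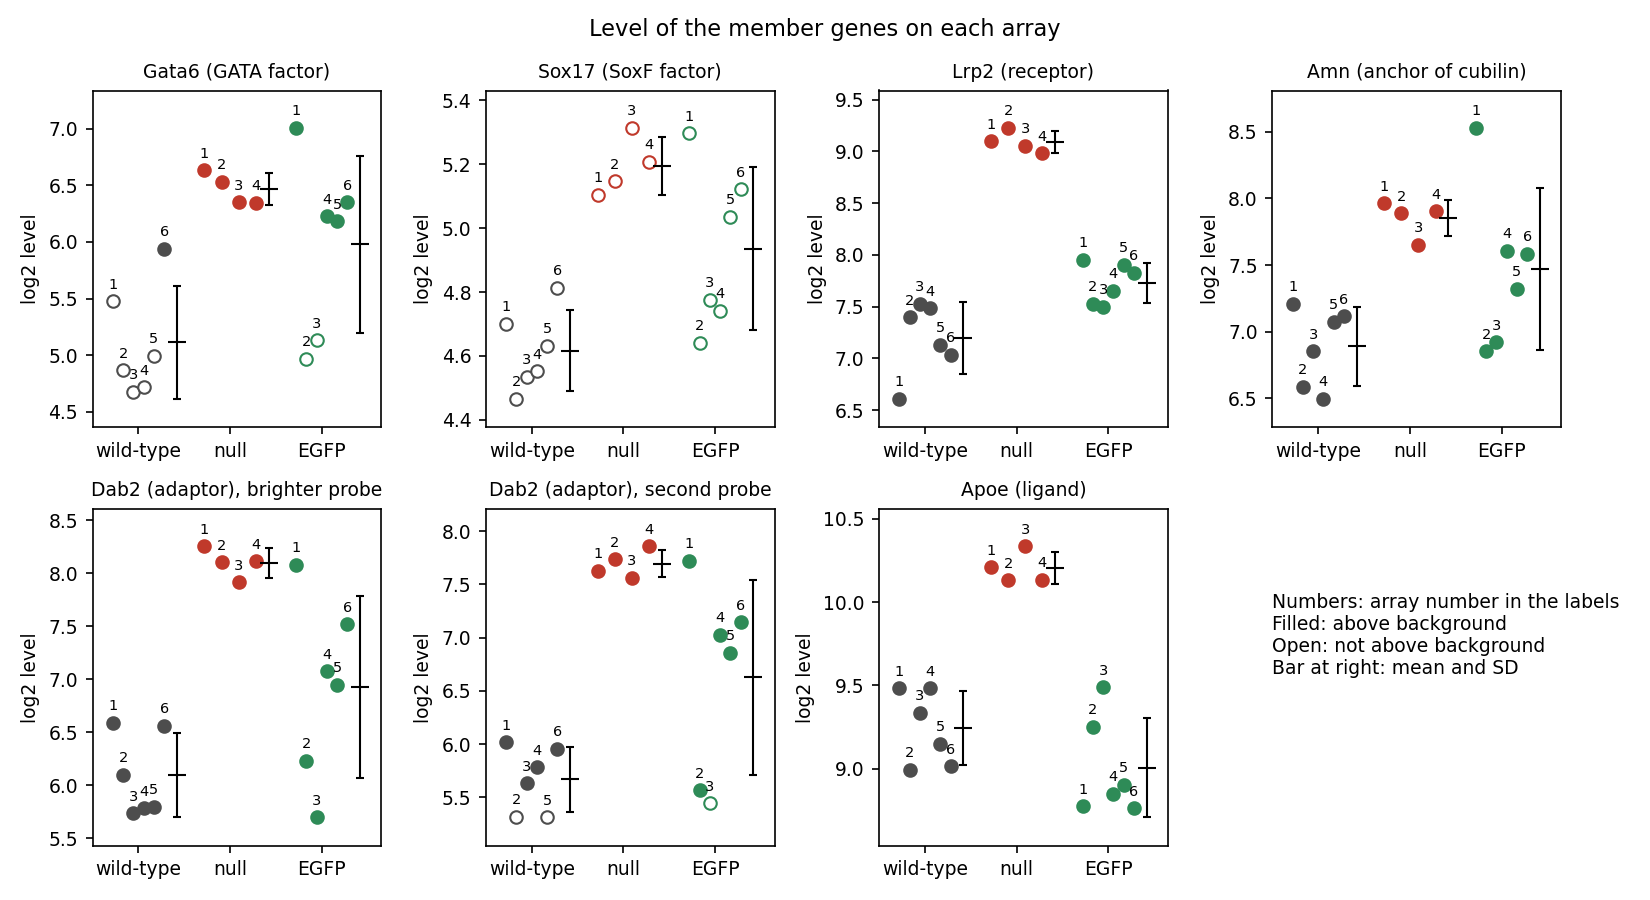
Log2 level (vertical axis, log2 of normalized intensity plus 16) of 7 probes on every array, 6 of wild-type, 4 of Prdm4 null and 6 of Prdm4-EGFP ESCs, with the array number from the labels, filled where the detection p-value was under 0.01 and with the group mean and SD at the right. The null arrays lie close together and above every wild-type array, while Prdm4-EGFP arrays 2 and 3 lie low and arrays 1, 4, 5 and 6 high for Gata6, Amn and Dab2.

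Gata6, the factor of primitive endoderm, was at or near background in wild-type ESCs. Its level was 5.48, 4.87, 4.68, 4.72, 5.00 and 5.94 on wild-type arrays 1 to 6, and only array 6 passed the detection threshold. It was 6.63, 6.53, 6.35 and 6.35 on the null arrays, all above background. Every null array lay above every wild-type array, and the null arrays had an SD of 0.14 against 0.50 between wild-type arrays. The difference was 1.35 (SE 0.32, limma adjusted p = 0.00255), with 5 of the 6 wild-type values behind it not above background. Its size depended on the background step: it was 0.77 with no background correction and 0.73 with normexp on the signals alone and an offset of 50, called in both. The study named Gata6 among the genes raised on these same arrays, so the call here is not independent evidence. Beside it the study also cites a quantitative PCR panel, which reports higher differentiation markers in null ESCs. Those measurements were not examined here.

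The 2 other factors were dim. The single probe of Gata4 was below the detection threshold on every array, with detection p-values of 0.0791 to 0.566. For Sox17, 1 probe was flat, and the other lay at 4.47 to 4.81 (median 4.59) in wild-type and at 5.10, 5.15, 5.31 and 5.21 in null ESCs, with no overlap. Its detection p-values in null ESCs were 0.0288 to 0.0588, close to but not past the threshold, and those in wild-type ESCs 0.138 to 0.649. With a looser filter (detection p-value under 0.05, in 4 or more arrays) it entered the test and was called (limma adjusted p = 5e-04). It passed that filter through null arrays 2, 3 and 4 and Prdm4-EGFP array 1 and through no wild-type array. It thus entered through the groups where it was high, and nothing is read from the call. No fold is given, because neither group was above background. Sox17 lies on chromosome 1, where the median of 426 tested genes was -0.40 in null against wild-type ESCs, while on the chromosomes of the other members the median was -0.01 to 0.05.

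Lrp2, the megalin receptor, was above background on every array. Its level was 6.61, 7.40, 7.53, 7.48, 7.13 and 7.04 on wild-type arrays 1 to 6 and 9.10, 9.23, 9.05 and 8.98 on the null arrays. Every null array was higher than every wild-type array. The mean difference was 1.89 (SE 0.15), a fold of 3.71 (limma adjusted p = 1.75e-08; exact two-sided permutation p = 0.00476, the smallest that 4 against 6 arrays can give). Within wild-type ESCs the lower 3 arrays were 1, 5 and 6, the same arrays that stood apart over all probes. The remaining 2 Lrp2 probes were not above background anywhere and their groups overlapped.

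Amn, which anchors cubilin, lay at 7.21, 6.59, 6.85, 6.50, 7.07 and 7.12 on wild-type arrays 1 to 6 and at 7.96, 7.89, 7.65 and 7.90 on the null arrays. The groups did not overlap, and the difference was 0.96 (SE 0.24, limma adjusted p = 0.00357). Its partner Cubn was not above background on any array (detection p-values 0.181 to 0.906). Thus the anchor was measured in all 3 genotypes and the receptor it carries was not detectable by its 1 probe.

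Dab2, the clathrin adaptor, had 4 probes. The brightest lay at 6.59, 6.10, 5.74, 5.78, 5.80 and 6.56 on wild-type arrays 1 to 6 and at 8.26, 8.10, 7.92 and 8.12 on the null arrays, a difference of 2.00 (SE 0.33, limma adjusted p = 9.66e-05), or a fold of 4.00. A second probe lay at 5.31 to 6.02 in wild-type and 7.56 to 7.86 in null ESCs and gave 2.03 (SE 0.34, limma adjusted p = 0.000104). Both probes showed no overlap between the groups. With normexp on the signals alone and an offset of 50 the second probe gave 1.34, and it was still called. Another probe was dim everywhere, with higher levels on all 4 null arrays (5.39 to 5.44) than on any wild-type array (4.78 to 5.11), and the remaining probe was flat at background.

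Apoe, the lipoprotein ligand, was above background on every array. It lay at 9.48, 8.99, 9.34, 9.48, 9.15 and 9.01 on wild-type arrays 1 to 6 and at 10.21, 10.13, 10.33 and 10.13 on the null arrays. The groups were separate, with a difference of 0.96 (SE 0.14, limma adjusted p = 2.29e-05). Bulk RNA was measured, so for every member more cells that express it and more RNA per cell cannot be told apart.

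Prdm4-EGFP ESCs were then compared with wild-type to ask whether overexpression moved the same genes. Among the tested members 1, Lrp2, was called, and it was higher rather than lower. Over all genes 1.9% were called higher and 2.19% lower. Lrp2 lay at 7.95, 7.53, 7.50, 7.65, 7.90 and 7.83 on Prdm4-EGFP arrays 1 to 6, 0.53 above wild-type (SE 0.13, limma adjusted p = 0.0299), with overlap between the groups. Without wild-type arrays 1, 5 and 6 the difference was 0.26 and was no longer called (limma adjusted p = 0.246). Leaving out any 1 of wild-type arrays 5 or 6 or of Prdm4-EGFP arrays 1, 5 or 6 also ended the call (limma adjusted p = 0.0655 to 0.0728), as did testing all probes with no filter (limma adjusted p = 0.0882).

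**Figure D2:**
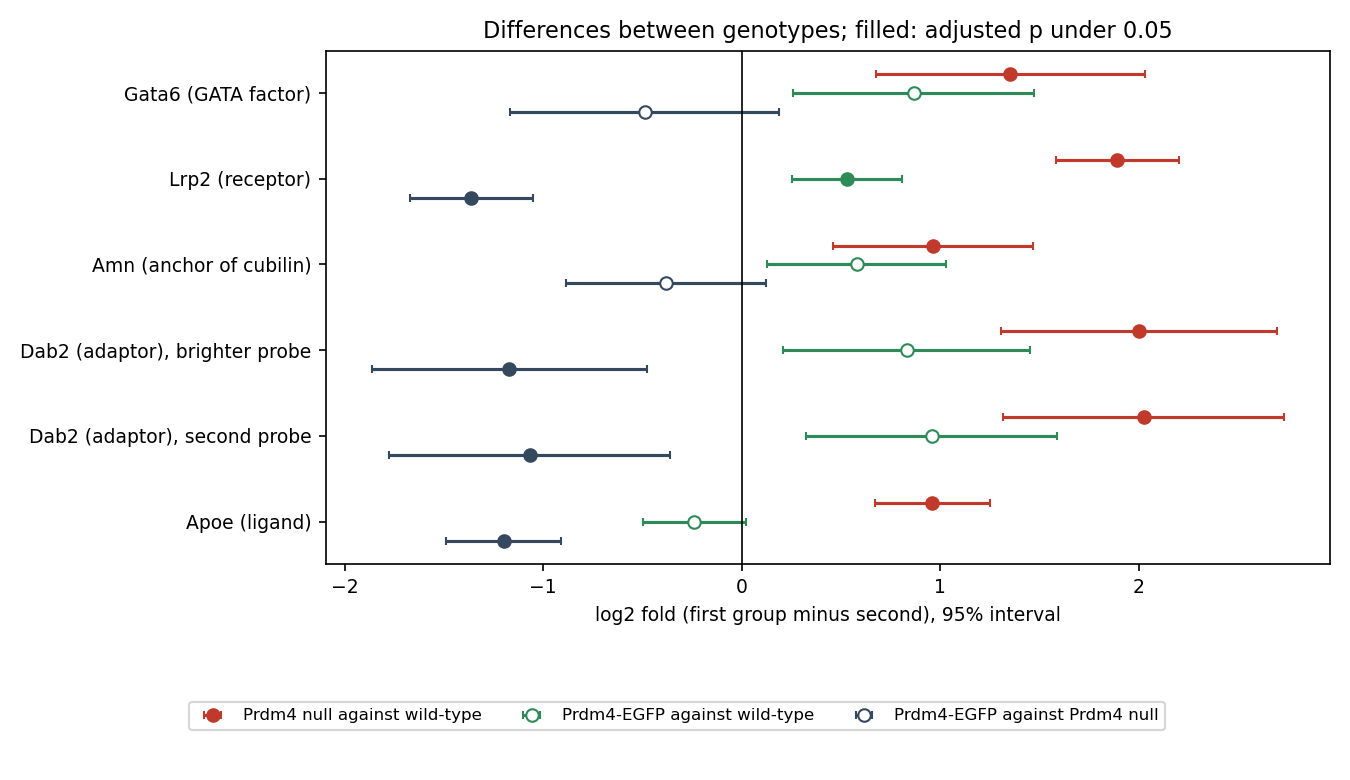
Log2 fold of each tested member probe (horizontal axis, first group minus second, with the 95% confidence interval of the limma fit) in the 3 comparisons, filled where the adjusted p was under 0.05. In null against wild-type all 6 probes lie between 0.96 and 2.03 with intervals above 0, and in Prdm4-EGFP against wild-type only Lrp2, at 0.53, is filled.

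Gata6, Amn and Dab2 had higher means in Prdm4-EGFP than in wild-type ESCs but were not called. Gata6 lay at 7.01, 4.97, 5.13, 6.23, 6.18 and 6.35 on Prdm4-EGFP arrays 1 to 6, which gave 0.87 with a 95% interval of 0.26 to 1.47 (limma adjusted p = 0.105). Arrays 2 and 3 were not above background and lay within the wild-type range, and array 1 was above every null array. Dab2 lay at 8.08, 6.23, 5.70, 7.08, 6.95 and 7.52 by its brightest probe and gave 0.83 with an interval of 0.21 to 1.45 (limma adjusted p = 0.130). Amn lay at 8.53, 6.85, 6.92, 7.61, 7.32 and 7.58 and gave 0.58 with an interval of 0.13 to 1.03 (limma adjusted p = 0.149), or 0.37 without Prdm4-EGFP array 1 (limma adjusted p = 0.235). For all 3 genes arrays 2 and 3 were the lowest of the group and array 1 the highest. Gata6 was called without Prdm4-EGFP array 2 (1.07, limma adjusted p = 0.0405) or array 3 (1.03, limma adjusted p = 0.0497), and Dab2 without array 3 (1.08, limma adjusted p = 0.0248). The second Dab2 probe gave 0.96 on all arrays (limma adjusted p = 0.0866) and was called without array 2 or array 3 (1.17 and 1.19, limma adjusted p = 0.0325 and 0.0192). With arrays weighted by quality both Gata6 (1.11, limma adjusted p = 0.0303) and Dab2 (1.06, limma adjusted p = 0.0427) were called. Under a model with the replicate number as a block, Gata6 and Dab2 were also called and Lrp2 was not (values at the end).

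Apoe behaved otherwise. It lay at 8.77, 9.25, 9.49, 8.85, 8.90 and 8.76 on Prdm4-EGFP arrays 1 to 6, so that arrays 2 and 3 were here the highest. The difference from wild-type was -0.24 with an interval of -0.50 to 0.02 (limma adjusted p = 0.330).

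The 2 engineered genotypes were compared directly, which tests whether the levels in null and Prdm4-EGFP ESCs differed from each other. Over all genes 23.6% were higher and 25.2% lower in Prdm4-EGFP than in null ESCs. Lrp2 differed by -1.36 (SE 0.15, limma adjusted p = 7.61e-07), Apoe by -1.20 (SE 0.14, limma adjusted p = 1.59e-06) and Dab2 by -1.17 (SE 0.33, limma adjusted p = 0.00738). The Lrp2 and Apoe arrays of the groups did not overlap, whereas Dab2 on Prdm4-EGFP array 1 lay inside the null range. For Gata6 the difference was -0.49 with an interval of -1.17 to 0.19 (limma adjusted p = 0.232) and for Amn -0.38 with an interval of -0.89 to 0.12 (limma adjusted p = 0.207). Without Prdm4-EGFP array 1 the Amn difference was -0.59 and was called (limma adjusted p = 0.00977). Missing the threshold does not show that these levels were alike. The 3 comparisons share arrays and are not independent of each other.

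The spread between Prdm4-EGFP arrays was itself patterned. The SD over these 6 arrays was 0.78 for Gata6, 0.86 for Dab2 and 0.61 for Amn, against 0.50, 0.40 and 0.29 over the 6 wild-type arrays and 0.14 for each over the 4 null arrays. For Lrp2 it was 0.19 in Prdm4-EGFP and 0.35 in wild-type ESCs. After each group's mean was subtracted, the deviations of Gata6 and Dab2 over the 16 arrays had r = 0.93 (Spearman rho = 0.95) and r = 0.90 without Prdm4-EGFP arrays 1 and 2, the farthest for Gata6. Among 8706 other genes Dab2 was the gene whose deviations were most like those of Gata6, and Amn ranked 9 (r = 0.87). Dab2 and Amn, both above background on every array, had r = 0.86, with 0.92 within Prdm4-EGFP and 0.59 within wild-type ESCs. The second Dab2 probe had r = 0.91 with the first. These values describe arrays that share a platform and a normalization, and on several of them Gata6 was not above background.

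The dim Sox17 probe lay at 5.30, 4.64, 4.78, 4.74, 5.04 and 5.12 on Prdm4-EGFP arrays 1 to 6, low on array 4 where Gata6 was high. Over the 16 arrays it had r = 0.81 with Gata6 (0.63 without Prdm4-EGFP arrays 1 and 2), and -0.87 within the 4 null arrays, and it was above background on none of them. Apoe ran the other way, with r = -0.69 with Gata6 and -0.72 with Dab2, and it ranked 8640 of the 8706 genes for Gata6. Lrp2 had r = 0.03 with Gata6 over all arrays, which hid opposite signs: r was 0.90 within the 6 Prdm4-EGFP arrays and -0.75 within the 6 wild-type arrays. The plots of the members against Gata6 show both directions. Deviations of Gata6 had r = 0.48 with the median signal of the array and r = -0.46 with its number of probes above background, and those of Apoe -0.33 and 0.51. The part of these array properties in the pattern was not tested.

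**Figure D3:**
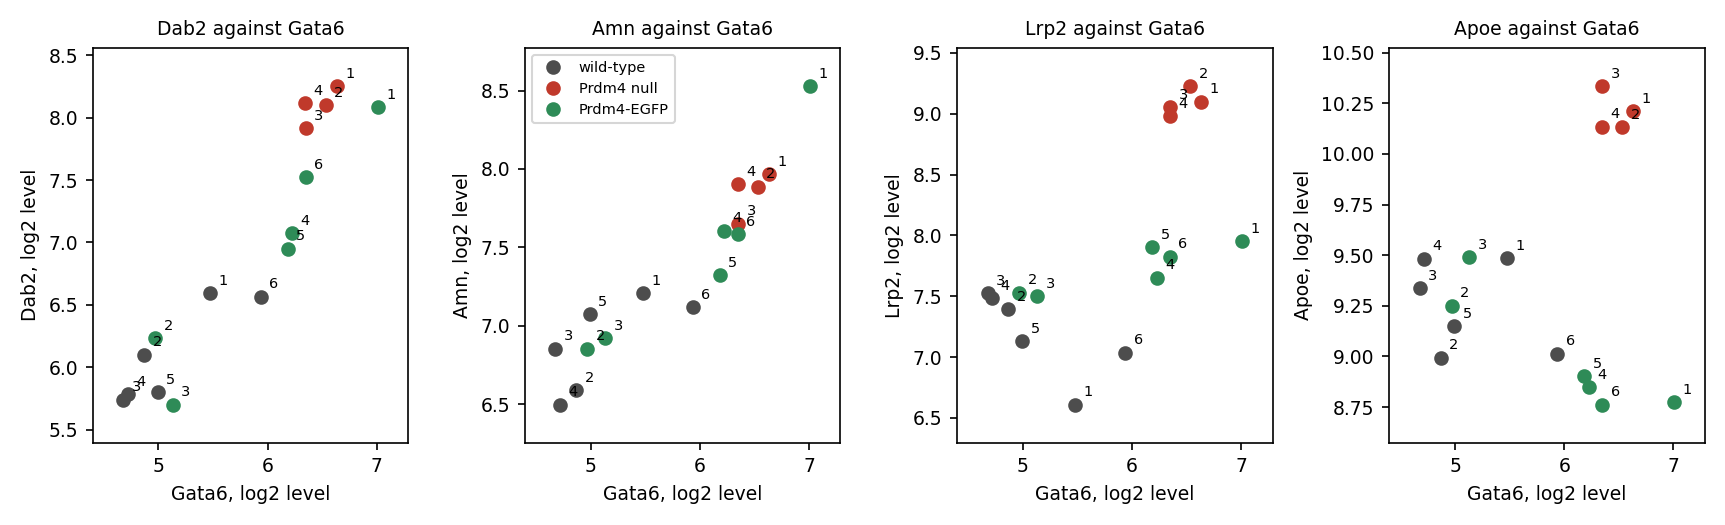
Log2 levels of Dab2, Amn, Lrp2 and Apoe (vertical axes) against that of Gata6 (horizontal axis) on each array, with array numbers and with genotypes in colour. Dab2 and Amn rise with Gata6 across all genotypes (r of deviations 0.93 and 0.87), while Lrp2 and Apoe of the null arrays lie above every other array at any level of Gata6.

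The 5 genes whose deviations were most like those of each member were named by rule. For Gata6 they were Dab2, Hs3st1, a heparan sulfate sulfotransferase (r = 0.92), Foxq1, a forkhead factor (r = 0.92), Pon2, a paraoxonase (r = 0.91), and Ube2f, a conjugating enzyme of the NEDD8 pathway (r = 0.89). For Amn they were Foxq1, Hs3st1, Ube2f, Gata6 and Dab2, with r from 0.86 to 0.91, so that 4 of its 5 were also among the 5 of Gata6. For Dab2 they were Col4a1 and Col4a2, the type IV collagen chains of basement membrane (r = 0.93 and 0.92), Gata6, Nostrin, a protein of membrane trafficking (r = 0.92), and Hs3st1 (r = 0.92). Hs3st1 lay at 6.63, 4.87, 5.00, 5.72, 5.86 and 6.00 on Prdm4-EGFP arrays 1 to 6, again lowest on arrays 2 and 3, and was above background there on arrays 1, 5 and 6 alone. In null against wild-type ESCs Hs3st1, Col4a1, Col4a2 and Nostrin were called higher, Ube2f was lower (-0.55, SE 0.06, limma adjusted p = 1.78e-06; it lies on chromosome 1, whose median was -0.40) and Pon2 was not called (limma adjusted p = 0.225). Among wild-type arrays Hs3st1 was above background on none (detection p-values 0.0118 to 0.167) and Nostrin on array 1 alone. Both thus passed the filter through the other groups.

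The nearest genes of Lrp2 were Mphosph9, Atf2, Pak2, Tmed4 and Ankrd13c (r from 0.89 to 0.91), and those of Apoe were Stard8, Pard6g, Renbp, Ilvbl and Ano9 (r from 0.88 to 0.93). No gene was shared between these lists or with those of Gata6, Dab2 and Amn. On the wild-type arrays Ankrd13c, the ankyrin repeat gene among them, lay at 5.25, 6.67, 6.87, 6.60, 5.77 and 5.85, low like Lrp2 on arrays 1, 5 and 6.

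Related genes were taken as lists. Over all genes 22.9% were called higher and 21.2% lower in null ESCs. The lists were chosen with earlier results known, so their counts are descriptions and nothing is read from them against these shares. Of 12 further genes listed as factors of primitive and visceral endoderm, 11 had a probe and 5 were tested, 3 of them higher and 1 lower in null ESCs. Whether a listed gene is particular to these cells was not tested. Klf6, a zinc finger factor, rose by 1.25 (SE 0.08, limma adjusted p = 1.4e-09) in null ESCs. Foxq1 was above background on no wild-type array and all 4 null arrays, at least 2.25-fold higher (limma adjusted p = 1e-04). It was also above background on 4 Prdm4-EGFP arrays, so it entered the test through the groups where it was high. Nothing is read from its call, which is 1 of the 3 higher. Tcf7l1, a repressor of the Wnt pathway, rose by 0.35 (SE 0.11). Sox7, the SoxF relative of Sox17, fell by 0.42 (SE 0.15, limma adjusted p = 0.0357), and it is named after its value was seen. Hnf4a was not called (0.17, SE 0.12, limma adjusted p = 0.264). The median of these 5 was 0.35.

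**Figure D4:**
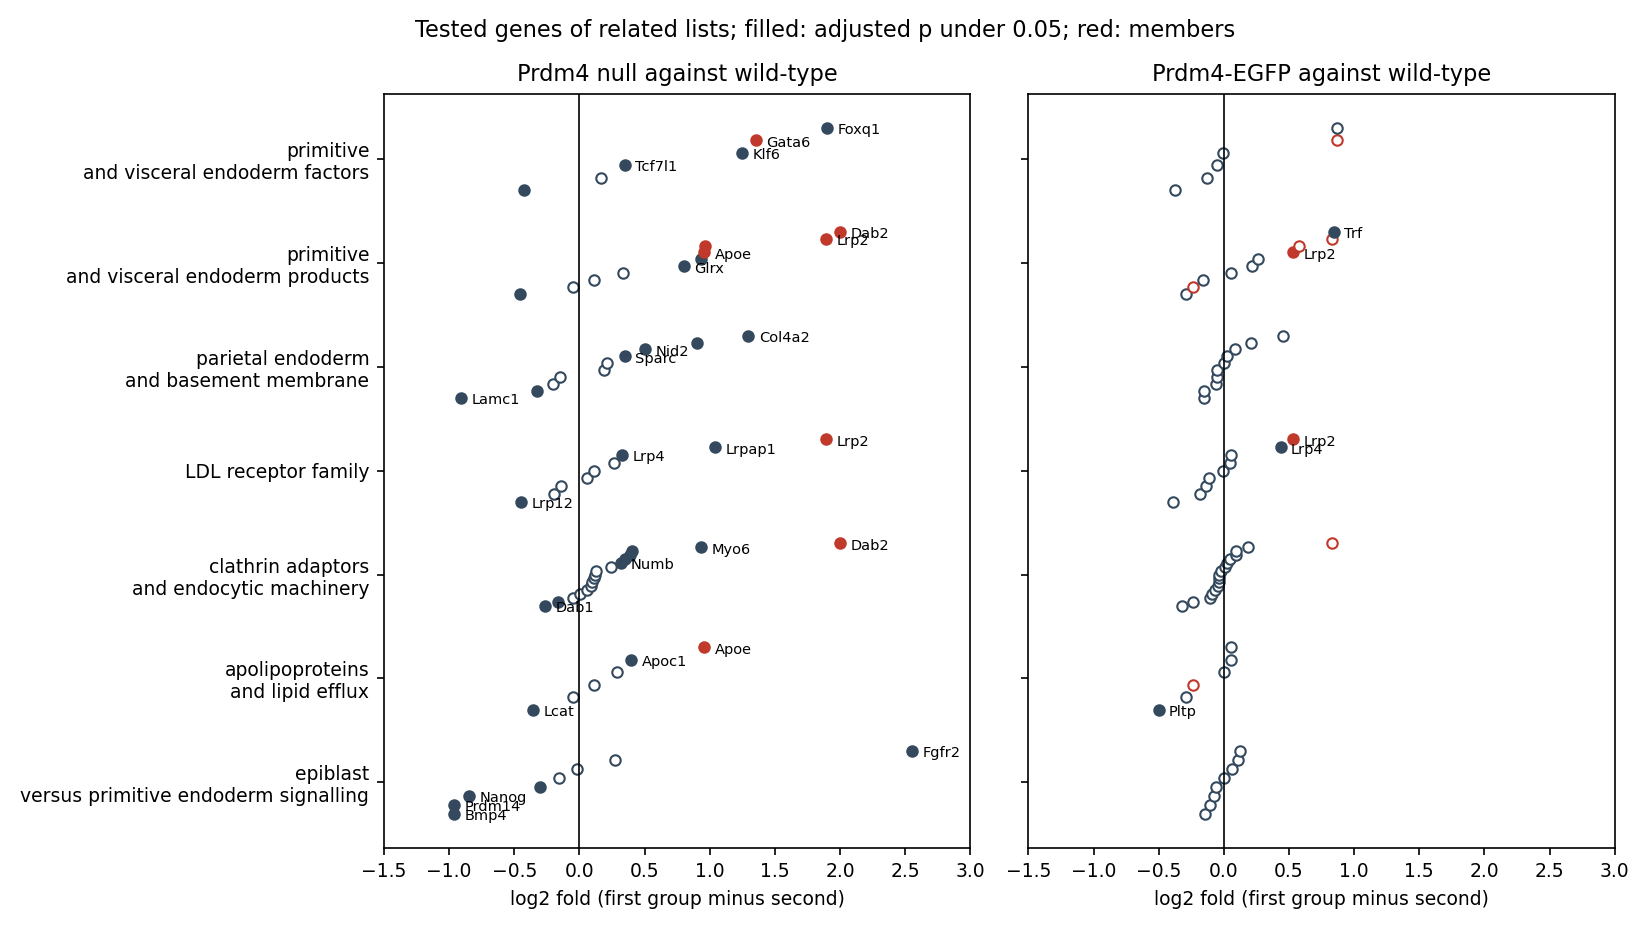
Log2 fold of every tested gene of 7 related lists (rows) in null against wild-type and in Prdm4-EGFP against wild-type (horizontal axes), filled where the adjusted p was under 0.05, in red for the members and with names for called genes among the 4 smallest p of a list. In the null comparison genes of each list lie on both sides of 0, from Bmp4 at -0.96 to Fgfr2 at 2.55, and in the Prdm4-EGFP comparison most points are open.

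Of 17 further products of primitive and visceral endoderm, 16 had a probe and 6 were tested, 2 of them higher and 1 lower in null ESCs (median 0.22). Glrx, a glutaredoxin, rose by 0.80 (SE 0.12, limma adjusted p = 2.79e-05). Serpinh1, a collagen chaperone, rose by 0.93 (SE 0.20) and Cth, an enzyme of cysteine synthesis, fell by 0.45 (SE 0.17), both named after their values were seen. Trf, the iron carrier transferrin and a ligand of cubilin, was the list's 1 call in Prdm4-EGFP ESCs, higher by 0.84 (SE 0.12, limma adjusted p = 0.000615).

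Of 16 genes of parietal endoderm and basement membrane, 10 were tested, 4 of them higher and 2 lower in null ESCs (median 0.20). Col4a2 rose by 1.30 (SE 0.25), Col4a1 by 0.91 (SE 0.23), Nid2, a nidogen, by 0.51 (SE 0.09) and Sparc, a matrix protein, by 0.35 (SE 0.07). Lamc1, a laminin chain, fell by 0.91 (SE 0.06, limma adjusted p = 4.9e-09). It lies on chromosome 1, whose median is given above. None of the 10 was called in Prdm4-EGFP ESCs.

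Lrp2 and Dab2 belong to the lists of receptors and endocytic genes, whose other members follow. Of 16 further genes of the LDL receptor family and its chaperone 8 were tested, with 2 higher and 1 lower in null ESCs (median 0.09). Lrpap1, the chaperone that escorts Lrp2 through the secretory pathway, rose by 1.04 (SE 0.06, limma adjusted p = 6.6e-10). Lrp4 rose by 0.33 (SE 0.11) in null and by 0.44 (SE 0.10, limma adjusted p = 0.0242) in Prdm4-EGFP ESCs, and Lrp12 fell by 0.45 (SE 0.08) in null ESCs. Of 23 further clathrin adaptors and endocytic genes 16 were tested, with 5 higher and 2 lower (median 0.12), led by Myo6, a motor that binds Dab2, which rose by 0.93 (SE 0.13, limma adjusted p = 1.85e-05). Numb, a related adaptor, rose by 0.32 (SE 0.07) and Dab1, the paralog of Dab2, fell by 0.26 (SE 0.06). No gene of these 16 was called in Prdm4-EGFP ESCs.

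Of 13 further apolipoproteins and genes of lipid efflux 5 were tested, with 1 higher and 1 lower in null ESCs (median 0.11). Apoc1, a neighbour of Apoe in 1 gene cluster, rose by 0.40 (SE 0.13, limma adjusted p = 0.0191). Lcat, called lower, was not above background on any null array and on 2 of 6 wild-type arrays. Pltp, a phospholipid transfer protein, was lower in Prdm4-EGFP ESCs (-0.50, SE 0.13, limma adjusted p = 0.0348).

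Of 10 further genes of vitamin B12 handling and ligands of cubilin 3 were tested, and Mmadhc, of intracellular B12 handling, rose by 0.21 in null ESCs (SE 0.07, limma adjusted p = 0.0186), while Trf (0.33, limma adjusted p = 0.0515) and the B12 receptor Cd320 (-0.01, limma adjusted p = 0.976) were not called. Of 6 other genes of the GATA list only Gata2 was tested, and it was not called in null ESCs (-0.27, limma adjusted p = 0.150). It was above background on 1 wild-type, 0 null and 5 Prdm4-EGFP arrays, so most values behind this difference were not above background. In Prdm4-EGFP against null ESCs it was called, at least 1.1-fold higher (limma adjusted p = 0.00424). Gata2 passed the filter through the Prdm4-EGFP arrays, where it was high, so nothing is read from that call.

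Of 12 genes of the signalling that divides epiblast from primitive endoderm 8 were tested, with 1 higher and 4 lower in null ESCs (median -0.23). Fgfr2, the FGF receptor of primitive endoderm, rose by 2.55 (SE 0.20, limma adjusted p = 1.57e-08), from a mean of 6.47 to 9.02. Nanog, the epiblast factor, fell by 0.85 (SE 0.09), Prdm14 by 0.96 (SE 0.09) and Bmp4 by 0.96 (SE 0.10). Fgf4, the ligand made by the epiblast, fell by 0.31 (SE 0.11, limma adjusted p = 0.0272) and is named after its value was seen. Nanog, Bmp4 and Prdm14 were named by the study from these arrays, with its quantitative PCR panel cited beside them. That panel reports lower pluripotency markers in null and higher ones in Prdm4-EGFP ESCs, and it was not examined here. Prdm14 lies on chromosome 1. On the arrays none of the 8 was called in Prdm4-EGFP against wild-type ESCs.

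Some markers of other cells differed between null and wild-type ESCs, and none was called in Prdm4-EGFP against wild-type. Of 10 trophoblast markers, Cdx2, Gata3, Eomes, Elf5 and Hand1 were above background on no array, while Tfap2c rose by 1.38 (SE 0.17), Krt18, above background on 1 of 6 wild-type arrays, by 1.05 (SE 0.14) and Krt8 by 0.64 (SE 0.13) in null ESCs. Ascl2 was not called (0.06, SE 0.13, limma adjusted p = 0.763). The summed intensity of the list was 776 to 1290 in wild-type, 2140 to 2600 in null and 772 to 1220 in Prdm4-EGFP ESCs. Of 8 fibroblast markers 6, including Col1a1 and Col1a2, were above background on no array, and of the other 2 Thy1 fell by 1.79 (SE 0.11, limma adjusted p = 1.21e-09) in null ESCs while Vim was not called (-0.19, SE 0.14, limma adjusted p = 0.302). The sum was 1270 to 1830 in wild-type, 835 to 1070 in null and 1380 to 1990 in Prdm4-EGFP ESCs. Of the 7 markers of definitive endoderm and mesendoderm with a probe 6 were above background on no array, as were 5 of the 6 of macrophages with a probe and 5 of 6 of neuroectoderm, whose other marker, Nes, was above background on 4 of 4 null and 0 of 6 wild-type arrays (limma adjusted p = 0.00713). Nes passed the filter through the null arrays alone, and Krt18 would not have passed it without them. Both thus entered the test through the group where they were high, and nothing is read from the Nes call. The part of other cells in the levels of the members was not tested.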

How the data were processed

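Total RNA was hybridized to Illumina Mouse WG-6 v2 BeadChips, and 16 arrays were grouped by the genotype in the labels. The deposited intensity is the scanner's mean bead signal per probe, which the authors left without normalization or background subtraction. The deposited detection p-value sets a probe against negative control beads. The authors also deposited a second table of intensity values, background-subtracted and rank-invariant normalized per the methods, which served as an alternative. Each of its columns followed the scanner signal linearly, with medians of 6.88 to 9.67 and 25.4% to 36.6% of values below 0. The scanner and its software are not given in the sources used here.

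The scanner signals were processed with limma 3.58.1 in R 4.3.3: neqc (normexp background from the detection p-values, offset 16, quantile normalization, log2), probes with detection p under 0.01 on at least 4 arrays, 1 linear model of the 3 group means, moderated statistics and Benjamini-Hochberg adjustment over 15356 probes, with a threshold of 0.05. The model was tested on simulated data first. Of 45281 probes, 34885 had 1 gene symbol, 18 had several and 10378 were unnamed. A gene is given by its brightest tested probe by the mean of the 16 arrays. Single values were also compared by exact two-sided permutation over arrays, whose smallest p is 0.00476 for 4 against 6 arrays. The number of arrays limits the precision.

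The members and gene lists were chosen with earlier results of these data known. Named genes were the members, up to 4 genes with the smallest p per list and comparison, the 5 genes most like each tested member over the arrays, and Prdm4; others are named as chosen after their values were seen. A search of protein sequences was not run. Promoters were searched on both strands with Python 3.11.15. Alternatives were background, normalization, dim-probe filter, variance model, array weights, replicate block, array sets, threshold and leaving out each array.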

Additional observations from a re-analysis of the deposited data

How the results depend on the processing

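Over 30 alternatives, 6 probes and 3 comparisons, 510 of 540 fold changes kept their direction and their side of the threshold, 16 lost the call, 14 gained one and 0 reversed. In null against wild-type ESCs 5 members were called, and 3 with array numbers 1 and 2 alone, where each group holds 2 arrays, and 3 (Lrp2, Dab2 and Apoe) at an adjusted p under 0.001. Leaving out each array in turn gave 5 in every fit. In Prdm4-EGFP against wild-type ESCs 1 member was called. The count was 0 with no filter on dim probes, with array numbers 1 and 2 alone, with numbers 3 and above alone, without wild-type arrays 1, 5 and 6, and at an adjusted p under 0.001, 3 with array weights, and 0 to 3 on leaving out each array (0 without wild-type array 5 or 6 or Prdm4-EGFP array 1, 5 or 6, 2 without Prdm4-EGFP array 2 and 3 without array 3). The cause was not tested. In Prdm4-EGFP against null ESCs 3 members were called, with a range of 2 to 4.

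With the replicate number as a block, 2 members (Gata6, limma adjusted p = 0.0412, and Dab2, 0.0497) and no longer Lrp2 (0.0702) were called in Prdm4-EGFP against wild-type, and 4 in Prdm4-EGFP against null. Whether the numbers pair the arrays was not settled by these data. The deviations of same-numbered arrays ranged in r from -0.0647 to 0.258 (14 pairs, mean 0.103, 7 above 0.1). The mean for the 70 pairs with unlike numbers was -0.0203, and 5 of 16 arrays correlated best with their own number. Over all probes the block moved the calls from 6381 to 6116, from 576 to 583 and from 7115 to 6882. Gata4, Cubn and Sox17 were limited by signal over background.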
